A study of Mus musculus with 12 samples.

Results

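Potassium channel genes were taken as the protein-coding genes whose mouse symbol begins with *Kcn*, other than *Kcne2* and *Kcnj13*, and 92 of the 55421 genes in the count files met this rule. Of these, 83 had over 20 counts when all 12 libraries were summed and were tested, among 22592 genes tested in all, and 9 were below that limit. The 92 genes fall into 21 subfamilies by the letters that follow *Kcn* in their symbols. Potassium channels let potassium ions leave the cell and thereby hold the resting potential, end the action potential and limit repeated firing. In hippocampal neurons, Kcnd channels carry the fast A-type current of dendrites, Kcnq channels the slow M-current that muscarinic receptors close, and Kcnma1 the large calcium-activated current, while Kcnj10 buffers potassium in astrocytes. FMRP, the RNA-binding protein made from *Fmr1*, is known to bind several potassium channel mRNAs and channel proteins.

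The libraries were made from poly(A) RNA of the hippocampus of 12 mice, each from 1 animal, on a C57BL/6 background. WT-Veh were wild-type littermates given the vehicle, dimethyl sulfoxide, and WT-Nut3 were wild-type littermates given Nutlin-3, which inhibits the ubiquitin ligase MDM2. KO-Veh and KO-Nut3 were *Fmr1* knockout mice (Fmr1-/y) with the same treatments, and each group held 3 mice. Nutlin-3 was injected intraperitoneally at 10 mg/kg every other day, 5 times, starting when the mice were 2 months old, and tissue was harvested 4 months after the last injection, at an age of 6 months. The knockout is constitutive and affects all cells, and whether these mice also carried the Nestin-GFP reporter of the colony is not given in the sources used here. Libraries are named by group and animal number, such as KO-Nut3 RH6. Reads counted on genes ranged from 17150820 in WT-Veh RH2 to 20040482 in WT-Nut3 RH9. Levels are given in CPM, counts scaled to a common library size with the TMM method of edgeR, and in CPM per kb of exon where genes are compared with one another.

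The targeted gene followed the labels. *Fmr1* was at 79.5, 75.3 and 77.7 CPM in WT-Veh, 75.2, 74.0 and 78.3 CPM in WT-Nut3, 32.7, 32.5 and 37.3 CPM in KO-Veh, and 30.6, 28.5 and 35.7 CPM in KO-Nut3. All 6 KO libraries were below all 6 WT libraries, with a log2 fold change over both treatments of -1.22 ± 0.0555 (SE) and an adjusted p of 1.71e-08 in the quasi-likelihood test of edgeR. Marker genes of hippocampal neurons were present in every library. The summed level of 10 dentate granule neuron markers was 608 to 855 CPM.

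KO-Nut3 RH6 stood apart in its neuronal and thalamus markers, and the main results for potassium channel genes are also given without it. In this library, the 9 tested markers of CA pyramidal neurons summed to 494 CPM, against 662 to 787 CPM in the other 11 libraries, and *Fibcd1*, the most abundant by the mean over libraries, was at 95.7 CPM. The 10 thalamus markers summed to 418 CPM in that library against 126 to 185 CPM in the others, with *Rora*, the most abundant by the mean over libraries, at 77.3 CPM and the glutamate transporter gene *Slc17a6* at 112.6 CPM against 8.42 to 22.2 CPM. The 10 choroid plexus markers were high in 3 libraries, all from Nutlin-3-treated mice. Their most abundant gene, *Ttr*, reached 4520 CPM in KO-Nut3 RH13, 4215 in WT-Nut3 RH9, 3091 in KO-Nut3 RH6 and 313.5 in KO-Nut3 RH8, with 3.15 to 18.2 CPM in the other 8 libraries. The 10 fibroblast markers summed to 257 CPM in KO-Nut3 RH8, 203 in KO-Nut3 RH13, 190 each in WT-Nut3 RH9 and WT-Veh RH5, and 187 in KO-Nut3 RH6, and to 63.4 to 116 CPM in the other libraries. In KO-Nut3 RH13 and WT-Nut3 RH9 a single gene, *Igfbp2*, gave 113 and 100.1 CPM of these sums, while *Aldh1a2* was at 2.64 and 3.13 CPM there, against 21.7 in KO-Nut3 RH8 and 14.9 in WT-Veh RH5. In bulk tissue, fewer cells of a type and less RNA per cell cannot be told apart.

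Potassium channel genes took 0.613% of all counts on average and between 0.587% and 0.646% per library. Their summed level averaged 6131 CPM, with the highest value, 6616 CPM, in WT-Veh RH2 and the lowest, 5639 CPM, in KO-Nut3 RH6. The median level of the 83 tested genes was 5.26 CPM per kb, beside 4.35 CPM per kb for 16191 tested protein-coding genes. The range ran from 0.0241 CPM per kb for *Kcnv2* to 139 CPM per kb for *Kcnab2*, with 29 genes above 10 and 16 below 1 CPM per kb. The 10 most counted genes held 55.8% of the family's counts, led by *Kcnab2*, a cytoplasmic beta subunit of Kcna channels, with 12.6%.

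**Figure D1:**
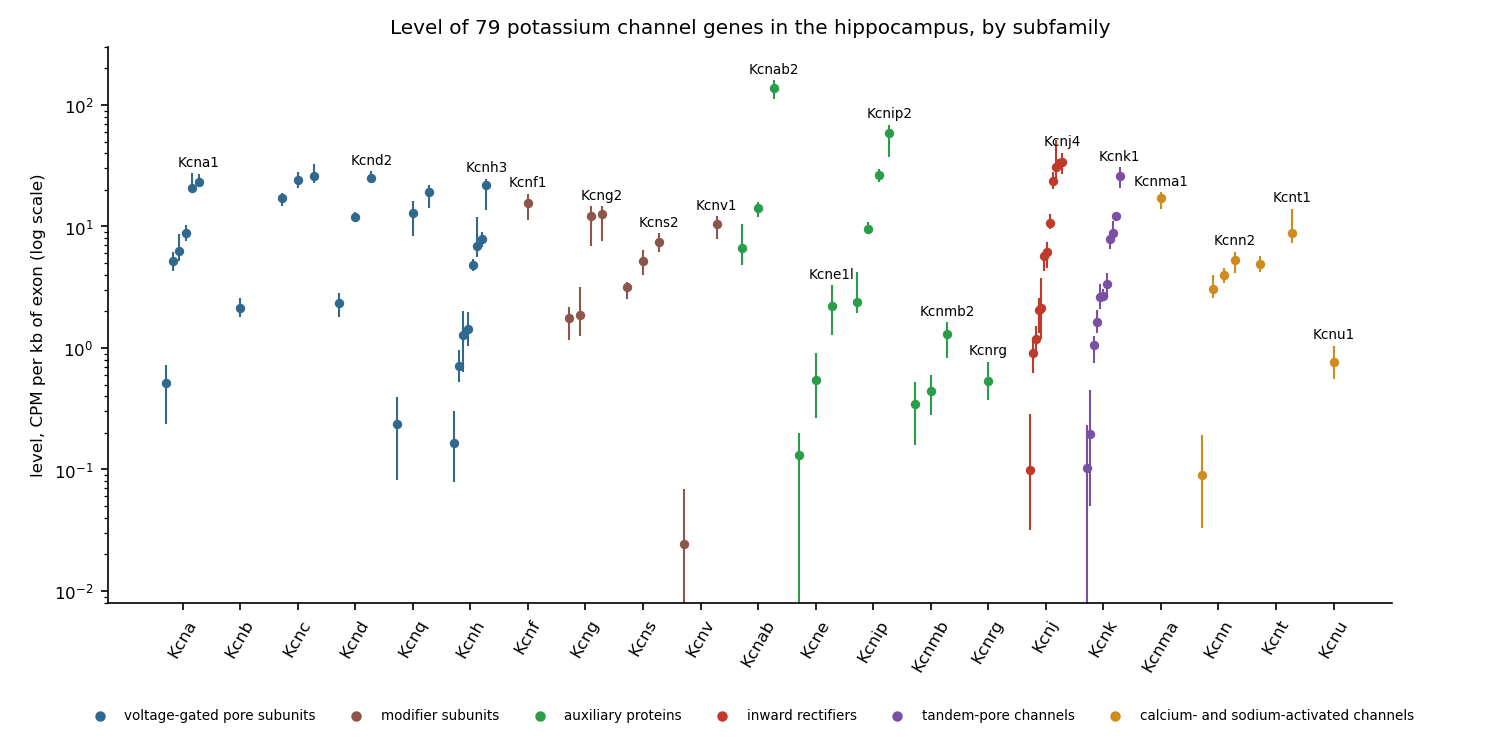
Level of 79 of the 83 tested potassium channel genes (CPM per kb of exon, log axis) by subfamily, coloured by role. Points are means over 12 libraries, lines run from the lowest to the highest library, and the leading members of 18 of the 21 subfamilies are named. Levels run from 0.0241 CPM per kb for *Kcnv2* to 139 CPM per kb for *Kcnab2*.

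Voltage-gated pore subunits (*Kcna*, *Kcnb*, *Kcnc*, *Kcnd*, *Kcnq* and *Kcnh*) took 50.5% of the family's counts with 28 of 30 genes tested. The leading members of 3 of these subfamilies lay close together. *Kcnd2*, the A-type subunit of dendrites, was at 25.2 ± 1.77 CPM per kb (SD, n = 12), *Kcna1*, a Shaker-type axonal subunit, at 23.3 ± 1.57, and *Kcnh3*, an Elk-type subunit of forebrain neurons, at 21.9 ± 2.90. Each of these 3 values lay within the combined SDs of its neighbour in the order. *Kcnq1*, best known from heart and inner ear, was at 0.237 CPM per kb, and *Kcnh8* was the lowest of its subfamily at 0.166 CPM per kb.

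Modifier subunits, which form no channel alone and combine with Kcnb subunits, took 4.82% of the counts, with 10 of 10 genes tested. Their leading genes were *Kcnf1* at 15.7 ± 2.14 CPM per kb, *Kcng2* at 12.8 ± 1.82, *Kcnv1* at 10.5 ± 1.01 and *Kcns2* at 7.50 ± 0.681 (SD, n = 12). Auxiliary proteins took 20.8%, with 14 of 16 genes tested. *Kcnab2* was at 139 ± 11.7 CPM per kb and *Kcnip2*, a calcium-binding partner of Kcnd channels, at 59.2 ± 8.37 CPM per kb. In contrast, the single-pass Kcne subunits reached at most 2.23 ± 0.532 CPM per kb (*Kcne1l*) and the beta subunits of the Kcnma1 channel at most 1.31 ± 0.232 CPM per kb (*Kcnmb2*). *Kcnrg*, a cytoplasmic regulator of Kv channels, was at 0.540 ± 0.131 CPM per kb.

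Inward rectifiers, the *Kcnj* genes, took 10.5% of the counts. Their leading genes were *Kcnj4* at 34.1 ± 4.10 CPM per kb, a strong rectifier of neurons, *Kcnj3* at 33.3 ± 1.85, a subunit of G-protein-gated channels, and *Kcnj10* at 30.8 ± 7.03, the astrocytic channel (SD, n = 12). These 3 did not differ beyond their spread. Of the exon length of *Kcnj3*, 31.1% is shared with *Gm26794*, and reads there cannot be assigned to either gene. Tandem-pore channels, the *Kcnk* genes, which carry leak current, took 5.17%, led by *Kcnk1* at 26.2 ± 2.74 CPM per kb. Calcium- and sodium-activated channels took 8.15%. Here *Kcnma1* was at 17 ± 1.40 CPM per kb, *Kcnt1*, the sodium-activated Slack channel, at 8.90 ± 1.86, *Kcnn2*, a small-conductance channel, at 5.26 ± 0.510, and *Kcnu1*, known from sperm, at 0.772 ± 0.154. With the length of the longest transcript in place of the exon length, the leading member was the same in 21 of 21 subfamilies.

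The 9 genes below the count limit were *Kcna10* with 13 counts over all libraries, *Kcnk18* with 12, *Kcnj15* with 11, *Kcna7* with 6, *Kcne1* and *Kcnmb3* with 5 each, *Kcnk16* with 4, *Kcnk15* with 2 and *Kcnj1* with 0. All 5 reads of *Kcne1*, a subunit that pairs with Kcnq1, were in WT-Veh RH15. The count of 0 for *Kcnj1*, a channel of the kidney, allows a level of up to 0.0136 CPM over all libraries by counting error alone. Just above the limit were *Kcnv2* with 27 counts, *Kcnk7* with 36 and *Kcne3* with 52. Some of these genes lie beside other members. On chromosome 3, *Kcna10* (13 counts) follows *Kcna2* (55125 counts), a Shaker-type axonal subunit, at a distance of 68051 bp, and on chromosome 9, *Kcnj1* (0 counts) follows *Kcnj5* (102 counts) at 28143 bp.

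The sequences before the transcription starts of 2 inward rectifier genes are shown because one has the highest level per kb and the other barely any counts in this subfamily, and they were picked with the levels known. RefSeq (GRCm38.p6) gave a promoter window for 67 of the 92 genes, of which the 250 bases before the start were used. The RefSeq start was the first base of the gene in GENCODE for 27 of the 67, and other windows lay up to 239248 bp into the gene (*Kcnip4*), so that the CG counts over all windows describe 1 annotated start per gene. *Kcnj4* had the highest mean level of the subfamily, though not beyond the spread of *Kcnj3* and *Kcnj10*, and *Kcnj15* was below the count limit. For *Kcnj4* and *Kcnj15*, the RefSeq start was the first base of the gene in GENCODE. Capitals mark the dinucleotide CG, which reads the same on both strands. The *Kcnj4* window is chr15:79505242-79505491 on the minus strand and the *Kcnj15* window chr16:95257308-95257557 on the plus strand.
Kcnj4: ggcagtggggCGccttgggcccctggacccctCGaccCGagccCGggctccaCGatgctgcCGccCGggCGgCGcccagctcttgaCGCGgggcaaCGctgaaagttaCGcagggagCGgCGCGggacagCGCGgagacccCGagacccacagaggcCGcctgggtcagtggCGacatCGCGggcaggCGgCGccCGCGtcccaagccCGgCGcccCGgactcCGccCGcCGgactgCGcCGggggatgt
Kcnj15: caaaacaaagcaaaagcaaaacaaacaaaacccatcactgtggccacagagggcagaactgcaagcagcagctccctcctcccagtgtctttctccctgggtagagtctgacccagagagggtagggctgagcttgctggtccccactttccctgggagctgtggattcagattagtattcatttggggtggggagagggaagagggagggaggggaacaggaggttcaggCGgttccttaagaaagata

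The *Kcnj4* window held 35 CG and the *Kcnj15* window 1. This pair does not stand for the subfamily, since the windows of *Kcnj3* and *Kcnj9*, at 33.3 and 23.5 CPM per kb, held 7 and 5 CG. Among 27025 genes with such a window, 2.85% held at least 35 CG and 19.7% held at most 1. At least 10 CG were found in 30 of the 59 tested members with a window (50.8%) and in 1 of the 8 members below the count limit (12.5%), beside 37.7% of all windows. Among members above 10 CPM per kb, 61.1% of 18 held at least 10 CG (median 14.5), and among tested members under 1 CPM per kb, 33.3% of 12 (median 7). Single genes departed from this. *Kcnk1* had 0 CG in its window and *Kcnf1* had 1, at 26.2 and 15.7 CPM per kb, whereas *Kcng3*, a modifier subunit, had 41 CG at 1.76 CPM per kb.

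Potassium channel genes varied more in KO-Nut3 RH6 than in the other libraries. Over the 63 members with more than 1000 counts, the median absolute deviation from the mean of the 12 libraries was 0.257 on the log2 scale in KO-Nut3 RH6 and 0.0588 to 0.138 in the others. Over all 12154 genes with more than 1000 counts, it was 0.121 in that library and 0.0628 to 0.0930 in the others. In KO-Nut3 RH6, 26 of the 63 members (41.3%) were at least 1.25-fold above or at most 0.8-fold of the mean of the other libraries, beside 18.2% of all genes. In each other library, 1.59% to 12.7% of the members were that far off, beside 4.10% to 8.98% of all genes. The share of members was above that of all genes in some of them, such as WT-Nut3 RH1 (12.7% beside 5.88%) and KO-Veh RH16 (12.7% beside 7.45%). It was below in others, such as WT-Veh RH2 (3.17% beside 8.98%) and KO-Veh RH10 (1.59% beside 6.73%).

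**Figure D2:**
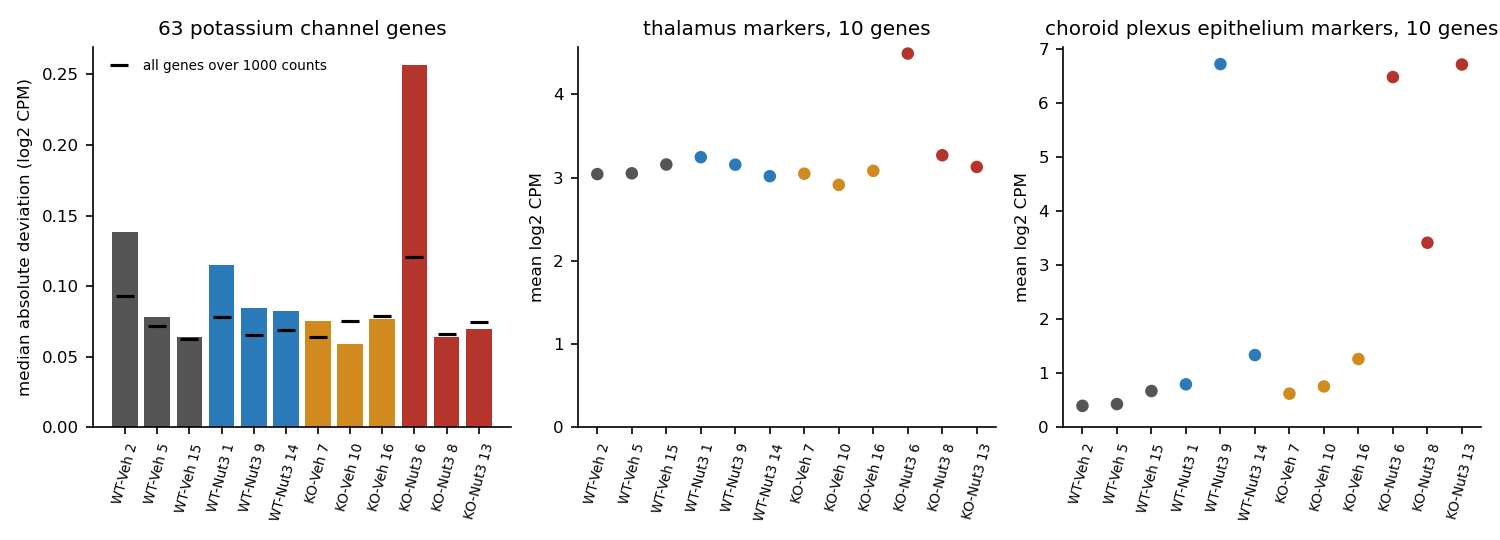
By library (group and animal number), the median absolute deviation of 63 potassium channel genes from their mean over 12 libraries (log2 scale, bars) and of all 12154 genes with more than 1000 counts (black lines), and the mean log2 CPM of the thalamus and choroid plexus marker lists (points). KO-Nut3 RH6 has the tallest bar, 0.257, and the highest thalamus value, and 3 Nutlin-3 libraries have the highest choroid plexus values.

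The members that stood out in KO-Nut3 RH6 went both ways, 11 above and 15 below the other libraries. All but *Kcnh5*, an Eag-type channel, were outside the whole range of the other 11. They were picked by their distance from the mean of those libraries, which makes such a place likely. Among all 63 members, KO-Nut3 RH6 was the highest library for 19.0% and the lowest for 36.5%. Over all 12154 genes with the same count limit, these shares were 17.1% and 21.4%. High members included *Kcnj10* at 279 CPM against 132 to 187 CPM, *Kcnt1* at 133 against 69.1 to 96.1, *Kcnip1*, a Kcnd partner, at 26.4 against 12.1 to 15.7, and *Kcnh2*, the Erg channel, at 58.3 against 27.3 to 40.5. *Kcna2* was at 326 against 228 to 284 CPM and *Kcnc1*, a channel of fast-spiking neurons, at 309 against 215 to 275 CPM. Low members included *Kcng1* at 30.9 against 45.1 to 66.3 CPM, *Kcng2* at 22.8 against 36.3 to 44.0, *Kcnip2* at 129 against 188 to 240, and *Kcnh3* at 79.3 against 114 to 142. Among the Kcnq genes, *Kcnq3* was at 208 against 253 to 324 CPM and *Kcnq5* at 64.2 against 74.0 to 124 CPM. The same library had the lowest CA pyramidal and the highest thalamus marker levels, and the part of these in the deviations was not tested.

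**Figure D3:**
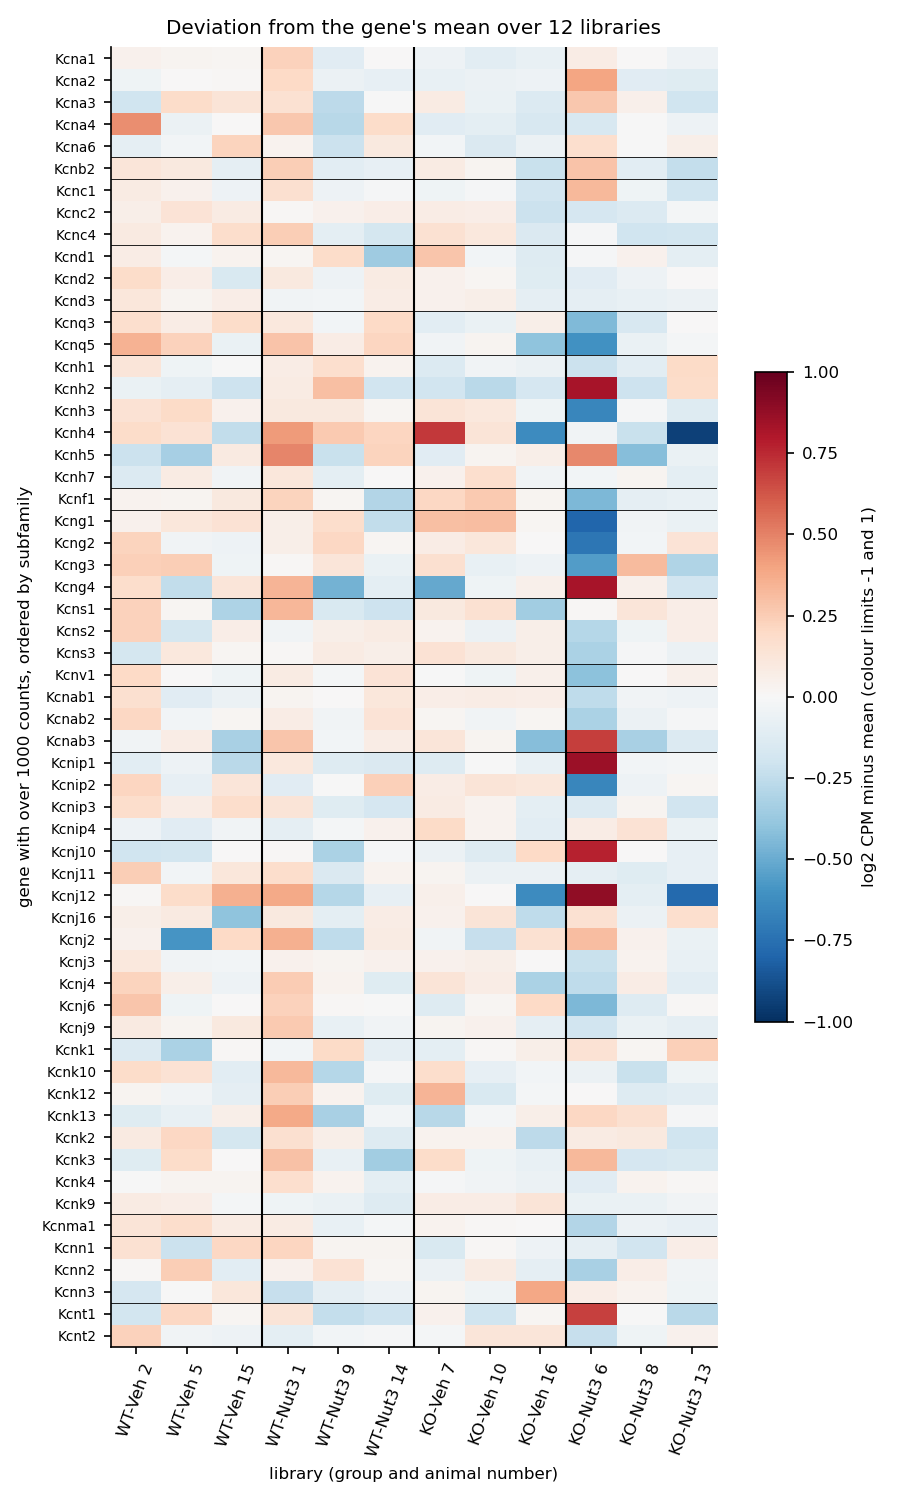
Log2 CPM minus the gene's mean over 12 libraries for 59 of 63 potassium channel genes (rows, in subfamilies) in each library (columns, group and animal number), with colour limits at -1 and 1. The column of KO-Nut3 RH6 holds many strong values of both signs, and among all 63 genes 11 were at least 1.25-fold above and 15 at most 0.8-fold of the mean of the other libraries.

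The effect of losing FMRP was asked first, in vehicle-treated mice. No potassium channel gene passed the threshold between KO-Veh and WT-Veh, with 0 of 83 at an adjusted p under 0.05 in the quasi-likelihood test of edgeR beside 0.0177% of all genes tested. At an unadjusted p under 0.05, 7 members (8.43%) were found beside 7.2% of all genes, and all 7 had lower means in KO-Veh. Without 1 library the number ran from 3, without KO-Veh RH10, to 6. Of the 83 members, 30 had a positive and 53 a negative log2 fold change, while 48.9% of all genes were positive. The median was -0.06 beside 0.00 for all genes. Without 1 library the median ran from -0.07 to -0.02, the latter without KO-Veh RH16, and it was -0.03 without WT-Veh RH5. For 71 members the 95% confidence interval of the change lay within 2-fold in either direction, and for 64 within 1.5-fold. Among the CA pyramidal neuron markers, 1 of 9 passed the threshold in this comparison, lower in KO-Veh. The 9 had a median of -0.07, with 3 positive. Of 10 pericyte and smooth muscle markers 0 were positive (median -0.35), with 6 under an unadjusted p of 0.05 in edgeR. Of 10 endothelium markers 1 was positive (median -0.18), with 4 under that limit. Lists with positive medians included choroid plexus (0.23) and oligodendrocytes (0.11). Their part in the values of the potassium channel genes was not tested. The smallest adjusted p of a potassium channel gene belonged to *Kcnq3*, a neuronal subunit of the M-current channel, at 0.618 in edgeR. Among members whose groups did not overlap, *Kcna4*, a Shaker-type subunit with fast inactivation, was at 41.6, 28.9 and 30.2 CPM in WT-Veh and 27.9, 28.1 and 26.9 in KO-Veh, a log2 fold change of -0.28 ± 0.118 (SE, adjusted p 0.673 in edgeR). This change ran from -0.38 to -0.10 when 1 library was left out. *Kcnrg*, at 0.683 to 0.721 CPM in WT-Veh and 0.826 to 1.41 in KO-Veh, had 0.66 ± 0.352 (adjusted p 0.744 in edgeR).

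Among the Nutlin-3-treated mice, 0 of 83 members passed the threshold of edgeR between KO-Nut3 and WT-Nut3, beside 0.00443% of all genes, the single gene called being *Fmr1*. Unadjusted, 8 members (9.64%) were under 0.05 beside 4.87% of all genes, 1 with a higher and 7 with a lower mean in KO-Nut3. Without KO-Nut3 RH6 there were 6, and without 1 library from 2, without WT-Nut3 RH1, to 13, without KO-Nut3 RH8. The median log2 fold change of the members was -0.08, or -0.06 without KO-Nut3 RH6. Of the members 33 were positive and 50 negative, while 51.1% of all genes were positive. Without WT-Nut3 RH1 the median was 0.0028, so that its direction rests on that library. The 9 CA pyramidal neuron markers had a median of -0.29 in this comparison, none of them positive. All 10 fibroblast markers (median 1.43), all 10 choroid plexus markers (0.89) and all 10 thalamus markers (0.41) were positive, with 0 past the threshold. The part of these lists in the values of the potassium channel genes was not tested. *Kcnj5*, a subunit of G-protein-gated channels, was at 0.254, 0.149 and 0.224 CPM in WT-Nut3 and 1.33, 0.630 and 0.549 CPM in KO-Nut3. Its groups did not overlap, but its 102 counts over all libraries make it a gene near the detection limit, and its log2 fold change of 1.97 ± 0.526 (SE), or 1.47 without KO-Nut3 RH6, had an adjusted p of 0.928 in edgeR. Groups of 3 members with lower means did not overlap either. *Kcnh4*, an Elk-type channel, was at 6.59, 5.86 and 5.66 CPM in WT-Nut3 and 4.77, 4.18 and 2.53 in KO-Nut3, a log2 fold change of -0.66 ± 0.236 (SE). Over the fits without 1 library this change ran from -0.435 to -0.85, the latter without KO-Nut3 RH6. *Kcnq5* had -0.41 ± 0.139, or -0.24 without that library, and *Kcnc2*, a channel of fast-spiking interneurons, had -0.15 ± 0.0585, or -0.12. Each of these 3 had an adjusted p of 0.928 in edgeR.

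The next comparison contains the libraries of both preceding ones and is no independent repeat of them. Over both treatments, with all 12 libraries in the fit, 0 of 83 members passed the threshold of edgeR between KO and WT, beside 0.00443% of all genes, again *Fmr1* alone. Unadjusted, 10 members (12%) were under 0.05 beside 8.16% of all genes, all 10 with lower means in KO, and the number was also 10 without KO-Nut3 RH6. Without 1 library it ran from 4, without WT-Nut3 RH1, to 14, without WT-Veh RH15. Of the 83 members, 29 had a positive and 54 a negative log2 fold change, with a median of -0.05, and of -0.05 without KO-Nut3 RH6, beside 0.01 for all genes. Without 1 library the median ran from -0.06 to -0.03, the latter without WT-Nut3 RH1 or KO-Nut3 RH13. Of all genes, 51.9% were positive in this comparison. Among the 28 voltage-gated pore subunits, 23 were negative and 5 positive, with a median of -0.07, or -0.09 without KO-Nut3 RH6. Of the CA pyramidal neuron markers, 8 of 9 were negative, with a median of -0.18 and 3 under an unadjusted p of 0.05. All 10 choroid plexus markers (median 0.78) and all 10 fibroblast markers (0.42) were positive, with 0 under that limit. The part of these lists in the values of the potassium channel genes was not tested. Among the 11 tandem-pore channels, 4 were negative and 7 positive, with a median of 0.02 that turned to -0.03 without KO-Nut3 RH6. For 78 of the 83 members the 95% confidence interval lay within 2-fold in either direction, and for 68 within 1.5-fold.

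The 5 *Kcnq* genes all had negative log2 fold changes between KO and WT, with a median of -0.20, or -0.10 without KO-Nut3 RH6. *Kcnq5* (chr1:21398403-21961942, minus strand), also a neuronal subunit of the M-current channel, was at 124, 114 and 93.3 CPM in WT-Veh, 119, 103 and 113 in WT-Nut3, 95.3, 99.7 and 74.0 in KO-Veh, and 64.2, 93.3 and 96.0 in KO-Nut3. Over both treatments KO and WT libraries overlapped, since WT-Veh RH15 at 93.3 CPM lay within the KO range. The log2 fold change of *Kcnq5* was -0.35 ± 0.101 (SE; 95% interval -0.57 to -0.14), with an unadjusted p of 0.00322 and an adjusted p of 0.417 in edgeR, and -0.28 without KO-Nut3 RH6.

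*Kcnq3* (chr15:65986387-66286642, minus strand) showed values of 317, 297 and 321 CPM in WT-Veh, 304, 278 and 324 in WT-Nut3, 262, 269.8 and 295 in KO-Veh, and 208, 253 and 284 in KO-Nut3. Only KO-Veh RH16 and KO-Nut3 RH13 exceeded the lowest WT library. Its log2 fold change over both treatments was -0.23 ± 0.0657 (SE; 95% interval -0.37 to -0.09), with an unadjusted p of 0.00331 and an adjusted p of 0.417 in edgeR, and -0.18 without KO-Nut3 RH6. When all 35930 genes with a count were tested in place of 22592, the adjusted p in edgeR was 2.94e-05 for *Kcnq5* and 0.00883 for *Kcnq3*. That setting called 239 of all genes, against 1 in the main fit. Over all alternatives the adjusted p ran up to 0.772 for both. *Kcnq1* had a log2 fold change of -0.20, and its 95% interval of -0.94 to 0.53 reached both sides of 0.

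**Figure D4:**
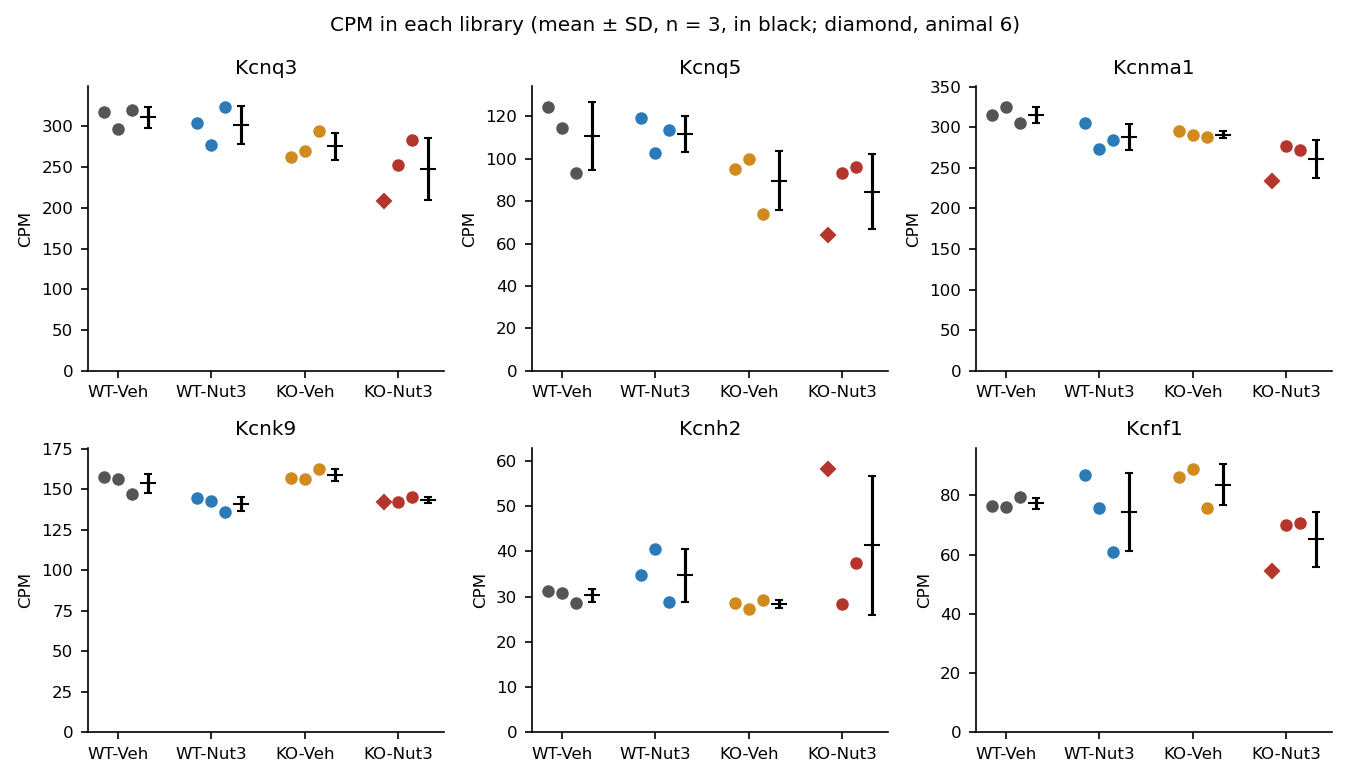
CPM of *Kcnq3*, *Kcnq5*, *Kcnma1*, *Kcnk9*, *Kcnh2* and *Kcnf1* in each library, by group (points; diamond, KO-Nut3 RH6), with the mean ± SD of each group in black (n = 3). *Kcnk9* lies at 136 to 145 CPM in all Nutlin-3 libraries and at 147 to 163 CPM in all vehicle libraries, while KO and WT overlap for both *Kcnq* genes.

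*Kcnma1* (chr14:23289431-24014491, minus strand) was among the lower members for both factors. It was at 315, 325 and 305 CPM in WT-Veh, 305, 273 and 284 in WT-Nut3, 295, 290.1 and 288 in KO-Veh, and 234, 277 and 272 in KO-Nut3. WT-Veh lay above both KO groups without overlap, and WT-Nut3 overlapped both of them. The log2 fold change of KO against WT was -0.13 ± 0.0447 (SE, adjusted p 0.472) and that of Nutlin-3 against vehicle -0.14 ± 0.0447 (SE, adjusted p 0.375) in edgeR. Without KO-Nut3 RH6 these were -0.10 and -0.11.

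Of the 5 listed members whose mRNA or protein is known to be bound by FMRP, *Kcnma1* and the following 4, 0 passed the threshold of edgeR between KO and WT. *Kcnd2* had a log2 fold change of -0.08 ± 0.0536 (SE), and of -0.12 to -0.05 over the fits without 1 library. *Kcnc1* had -0.05 ± 0.0744, which ran from -0.0058 to -0.13 over these fits, the latter without KO-Nut3 RH6, in which *Kcnc1* was highest. *Kcnt1* had 0.11 ± 0.136, a sign that turned to -0.05 without KO-Nut3 RH6. *Kcnmb4*, the neuronal beta subunit of Kcnma1, had -0.06 ± 0.216, or 0.02 without KO-Nut3 RH6, and 31.5% of its exon length overlaps antisense genes from which its reads cannot be told apart here. The 95% intervals of *Kcnd2* (-0.19 to 0.04), *Kcnc1* (-0.21 to 0.11) and *Kcnt1* (-0.18 to 0.40) bound their differences, whereas that of *Kcnmb4* (-0.52 to 0.40) was wide.

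Nutlin-3 treatment was then compared with vehicle 4 months after the last injection. In knockout mice, 0 of 83 members passed the threshold of edgeR between KO-Nut3 and KO-Veh, beside 0.199% of all genes, 45 in number. Unadjusted, 7 members (8.43%) were under 0.05 beside 7.6% of all genes, 2 higher and 5 lower, and 5 members without KO-Nut3 RH6. Without 1 library the calls over all genes ran from 6, without KO-Veh RH7 or KO-Veh RH10, to 266, without KO-Nut3 RH8. The unadjusted members ran from 3, without KO-Veh RH10, to 16 without KO-Nut3 RH8 and 17 without KO-Nut3 RH13. Of the members 37 were positive and 46 negative, while 50.8% of all genes were positive. The median log2 fold change was -0.04. Leaving out KO-Veh RH16 gave -0.06, KO-Veh RH10 gave -0.0065 and KO-Veh RH7 turned it to 0.0011, so that its direction rests on single libraries. In the same comparison 4 of 10 choroid plexus and 2 of 10 fibroblast markers passed the threshold, all higher in KO-Nut3, and their part in the values of the potassium channel genes was not tested. In wild-type mice, 0 of 83 passed between WT-Nut3 and WT-Veh, beside 0% of all genes. Unadjusted, 2 members (2.41%), both lower, were under 0.05 beside 3.17% of all genes, with 1 to 6 without 1 library, the highest without WT-Nut3 RH1, and the median was 0.00, or -0.05 to 0.04 without 1 library.

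The smallest adjusted p in knockout mice was that of a modifier subunit. *Kcnf1* was at 86.1, 89.1 and 75.9 CPM in KO-Veh and 54.5, 70.2 and 70.7 CPM in KO-Nut3, groups that did not overlap. Its log2 fold change was -0.36 ± 0.104 (SE), with an adjusted p of 0.332 in edgeR, and -0.25 without KO-Nut3 RH6. With all 35930 genes, a setting that called 544 of them against 45 in the main fit, its adjusted p in edgeR was 0.0135. Over all alternatives its adjusted p ran up to 0.983. *Kcng1*, also a modifier, was at 66.0, 66.3 and 54.3 CPM in KO-Veh and 30.9, 52.2 and 51.1 CPM in KO-Nut3. These groups did not overlap either, and the log2 fold change of -0.48 ± 0.173 (adjusted p 0.514 in edgeR) was -0.27 without KO-Nut3 RH6. In wild-type mice, *Kcnf1* was at 76.3, 76.0 and 79.6 CPM in WT-Veh and 87.1, 75.7 and 60.9 CPM in WT-Nut3, so that the groups overlapped.

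Over both genotypes, 0 of 83 members passed the threshold of edgeR between Nutlin-3 and vehicle, beside 0% of all genes. Unadjusted, 10 members (12%), 5 higher and 5 lower, were under 0.05 beside 7.29% of all genes, and again 10 without KO-Nut3 RH6, with 5, without KO-Veh RH7, to 13 without 1 library. The median log2 fold change was -0.03, or -0.01 without KO-Nut3 RH6 and -0.05 to -0.0042 over all fits without 1 library, and for 76 members the 95% confidence interval lay within 2-fold in either direction. *Kcnk9* (chr15:72501089-72546340, minus strand), an acid-sensitive leak channel of neurons, had the smallest p of the family. It was at 157, 156 and 147 CPM in WT-Veh and 157, 157 and 163 in KO-Veh, and at 144, 142 and 136 CPM in WT-Nut3 and 142, 142 and 145 in KO-Nut3. All 6 Nutlin-3 libraries lay below all 6 vehicle libraries, 145 CPM being the highest of the former and 147 CPM the lowest of the latter. The log2 fold change was -0.13 ± 0.0328 (SE; 95% interval -0.20 to -0.06), with an unadjusted p of 9.6e-04 and an adjusted p of 0.252 in edgeR, and -0.13 without KO-Nut3 RH6. With DESeq2, the package the study used for its own tests, the adjusted p of *Kcnk9* was 0.0375, with 79 of 22592 genes called. The study reported no such comparison over both genotypes. This value was the lowest of the alternatives, which reached up to 0.632. *Kcnk9* was the only member called by DESeq2 in the 7 comparisons.

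**Figure D5:**
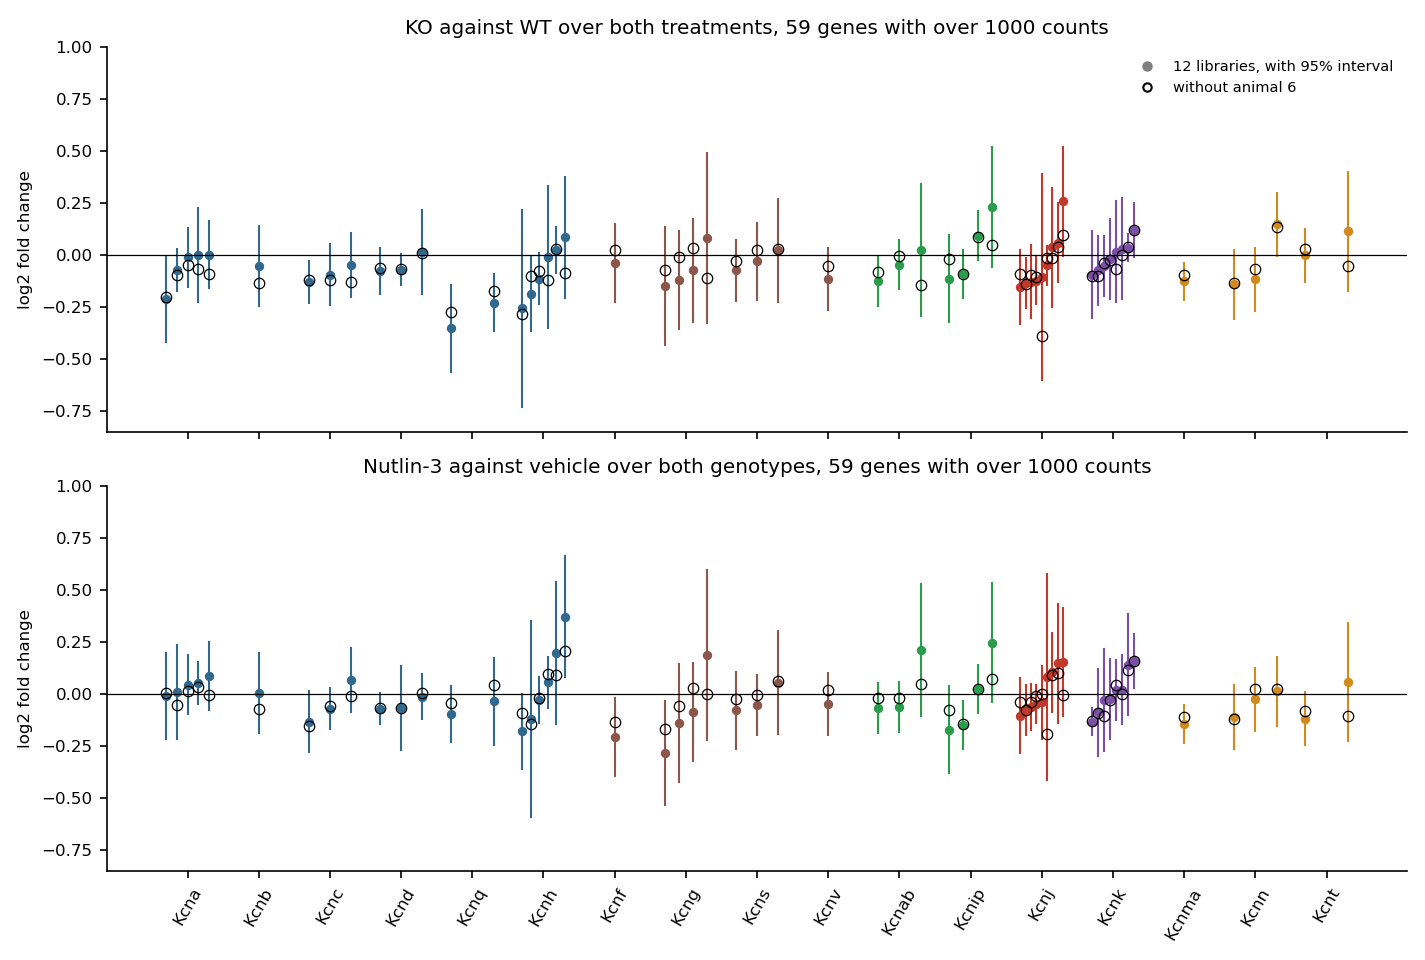
Log2 fold changes of 59 of the 63 potassium channel genes with more than 1000 counts, for KO against WT (top) and Nutlin-3 against vehicle (bottom), by subfamily. Filled points with 95% confidence intervals use 12 libraries and open points leave out KO-Nut3 RH6. No gene has an adjusted p under 0.05, and the lowest *Kcnq* gene at the top, *Kcnq5*, is at -0.35.

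Members with higher means after Nutlin-3 included *Kcnh2* and *Kcnk1*, and both were highest in the libraries with high choroid plexus markers. *Kcnh2* was at 31.4, 30.9 and 28.5 CPM in WT-Veh, 34.8, 40.5 and 28.7 in WT-Nut3, 28.7, 27.3 and 29.2 in KO-Veh, and 58.3, 28.4 and 37.4 in KO-Nut3. Its 3 highest libraries, KO-Nut3 RH6, WT-Nut3 RH9 and KO-Nut3 RH13, are those with the highest *Ttr*, and the other 9 lie at 27.3 to 34.8 CPM. Its log2 fold change was 0.37 ± 0.139 (SE, adjusted p 0.541 in edgeR), or 0.21 without KO-Nut3 RH6. *Kcnk1* was at 64.4, 66.5 and 69.0 CPM in the same 3 libraries and at 46.8 to 60.8 CPM in the others, with a log2 fold change of 0.16 ± 0.0634 (adjusted p 0.600), and of 0.16 without KO-Nut3 RH6. The part of choroid plexus tissue in these values was not tested. *Kcnh8*, an Elk-type channel, was at 0.358 to 0.741 CPM in the vehicle libraries and 0.609 to 1.39 CPM in the Nutlin-3 libraries, which overlapped, with a log2 fold change of 0.82 ± 0.248 (adjusted p 0.361 in edgeR), or 0.70 without KO-Nut3 RH6. Among lower members, *Kcnip3*, a calcium-binding partner of Kcnd channels, had -0.15 ± 0.0565 (adjusted p 0.558 in edgeR), with overlapping groups.

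For the interaction of genotype and Nutlin-3, the question whether the treatment acted differently in KO and WT mice, 0 of 83 members passed the threshold of edgeR beside 0% of all genes. Unadjusted, 5 members (6.02%) were under 0.05 beside 4.17% of all genes, and 2 without KO-Nut3 RH6, with 0, without KO-Veh RH10, to 9, without KO-Nut3 RH8, over all fits without 1 library. The intervals were wide here, with 41 of 83 members within 1.5-fold. *Kcnab1*, a beta subunit of Kcna channels, was at 136, 113 and 117 CPM in WT-Veh, 124, 122 and 132 in WT-Nut3, 127, 128 and 128 in KO-Veh, and 102, 119 and 118 in KO-Nut3. KO-Nut3 lay below KO-Veh without overlap, whereas the WT groups overlapped, and the interaction term was -0.23 ± 0.105 (SE, adjusted p 0.994 in edgeR), or -0.16 without KO-Nut3 RH6. *Kcnj5* and *Kcnn4*, a calcium-activated channel of blood and immune cells, had terms of 2.05 and 1.75 from levels below 1.5 CPM in every library.

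Members known from glia or vessels did not pass the threshold of edgeR in any of the 7 comparisons with 22592 genes tested. When all 35930 genes with a count were tested, *Kcnj10* had an adjusted p of 0.0177 in edgeR for KO against WT. That setting called 239 of all genes, against 1 in the main fit. *Kcnj10* (chr1:172341210-172374085, plus strand) was at 143, 144 and 164 CPM in WT-Veh, 165, 132 and 162 in WT-Nut3, 157, 149 and 187 in KO-Veh, and 279, 164 and 155 in KO-Nut3. Only KO-Nut3 RH6 and KO-Veh RH16 lay above the WT range. Its log2 fold change of KO against WT was 0.26 ± 0.125 (SE, unadjusted p 0.0566 in edgeR), or 0.10 without KO-Nut3 RH6. In the same library, of 10 astrocyte markers, *Aqp4* at 192 CPM, *Gja1* at 218 and *Aldh1l1* at 48.6 were above the range of the other 11, *Slc1a2*, the most abundant, at 2707 and *Slc1a3* at 491 were below it, and the list summed to 4982 CPM against 4767 to 5945 CPM. Their part in the level of *Kcnj10* was not tested. *Kcnj8*, a channel of pericytes, had a log2 fold change of 0.31 ± 0.141 between Nutlin-3 and vehicle (unadjusted p 0.0440 in edgeR), or 0.33 without KO-Nut3 RH6. In the same comparison 9 of the 10 pericyte and smooth muscle markers were higher, with a median of 0.22 and 0 past the threshold, and they summed to 325 CPM in KO-Nut3 RH8, 303 in WT-Veh RH5 and 198 to 247 CPM in the others, with *Rgs5* the most abundant. Their part in the level of *Kcnj8* was not tested. For Nutlin-3 against vehicle, *Kcnj16*, *Kcnk13* and *Kcna3*, known from astrocytes and microglia, had 0.10 ± 0.0912, 0.14 ± 0.116 and 0.01 ± 0.109.

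Partners of potassium channels outside the family were read for comparison. Of 24 listed genes, 23 were tested and 0 passed the threshold of edgeR in any of the 7 comparisons, and they were fitted with all libraries only. In KO against WT, 10 of the 23 were positive, with a median log2 fold change of -0.04. Unadjusted, 4 of the 23 were under 0.05 in edgeR, beside 8.16% of all genes. *Abcc8*, the sulfonylurea receptor of Kcnj11 channels, had -0.17 ± 0.0532 on the log2 scale (unadjusted p 0.00614, adjusted p 0.436 in edgeR). *Cntnap1*, an adhesion protein beside the node of Ranvier, had -0.16 ± 0.0569, and *Dlg4*, the scaffold PSD-95 that binds Kcna and Kcnj channels, had -0.13 ± 0.0481. For Nutlin-3 against vehicle, 8 of the 23 were positive, with a median of -0.01, and 3 were under an unadjusted p of 0.05 in edgeR, beside 7.29% of all genes. *Lrrc38*, a gamma subunit of the Kcnma1 channel, had 0.94 ± 0.268 (adjusted p 0.322 in edgeR).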

How the data were processed

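RNA-seq counts of 12 hippocampi were analysed, 3 per group, with groups and animal numbers taken from the sample labels. The deposited values are raw counts of reads per gene, which the authors made with STAR on mm10 and did not normalize, and the counts over both strands were used. The labels give single reads and the methods paired ends, and the STAR version and annotation are not given in the sources used here. Ensembl identifiers were matched to GENCODE M21 for symbols and exon lengths, and 55240 of 55421 matched.

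Counts were normalized with TMM in edgeR 4.0.16 (R 4.3.3), and 22592 genes whose counts over all libraries exceeded 20 were tested with the quasi-likelihood test, two-sided, with Benjamini-Hochberg adjustment over all of them and a threshold of 0.05. Pairs of groups were fitted on their own 6 libraries, and the interaction and the comparisons over both treatments or genotypes on all 12. The counting floor was 3 counts, which covers counting error only. Total reads per library ranged from 21772933 to 25498894. No pair of libraries was a duplicate, since the lowest median chi-square over 66 pairs was 1.17, against 0.455 under counting noise.

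The genes named are members with an adjusted p under 0.05, in each comparison up to 3 members per direction by unadjusted p whose groups do not overlap (over all 12 libraries, with an unadjusted p under 0.05), the leading member of each subfamily, members linked to FMRP or known from glia or vessels, those beside the count limit, and partners of the channels. A few members that these rules name are not reported here. Other genes were named after their values were seen. The members, marker lists and partners were chosen with earlier results of these data known. The study ran its own differential tests with DESeq2, which was used here as an alternative (version 1.42.0). Other alternatives were DESeq2 size factors, the filterByExpr selection for the number of members kept, every gene with 1 count or more, and 1 fit of all 12 libraries. The animal number block (up to 8 or from 9) as a term, the longest transcript for levels, and leaving out each library were also used.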

Additional observations from a re-analysis of the deposited data

Results flagged for a closer look

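Single libraries stood far from the others of their genotype or treatment for 3 of 26 sets of 6 libraries examined by Dixon's criterion, by which chance picks about 1 in 20 sets. The 26 sets did not cover every named gene, so that 3 is no count of such libraries over the family. *Kcnj10*, at 279 CPM in KO-Nut3 RH6 with the nearest KO library at 187 CPM, is not among the 3. *Kcnc1*, a channel of fast-spiking neurons, was at 309 CPM in KO-Nut3 RH6, and the nearest of the other 5 KO libraries was at 244 CPM, a gap of 0.691 of the whole range. *Kcnt1*, the sodium-activated Slack channel, was at 133 CPM in the same library, with the nearest KO library at 85.7 CPM and a gap of 0.741. *Kcnk9*, the acid-sensitive leak channel, was at 136 CPM in WT-Nut3 RH14, below the other 5 Nutlin-3 libraries, of which the nearest was at 142 CPM, a gap of 0.654.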

How the results depend on the processing

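No potassium channel gene passed the threshold in any of the 7 comparisons with DESeq2 size factors, 1 fit of all 12 libraries (run for the 4 pairs of groups) or the animal number block as a term, nor in any of 60 fits that left out 1 library. With all genes of at least 1 count, 91 members were tested among 35930 genes. In KO-Nut3 against KO-Veh 3 members passed (*Kcng1*, *Kcnh2* and *Kcnf1*), beside 544 of all genes. In KO-Veh against WT-Veh 1 passed (*Kcnq5*) beside 272, and in KO against WT 3 (*Kcnq5*, *Kcnq3* and *Kcnj10*) beside 239. In Nutlin-3 against vehicle 3 passed (*Kcng1*, *Kcnh2* and *Kcnf1*) beside 539. In WT-Nut3 against WT-Veh, where the main fit called 0 genes, this setting called 249, with 0 members among them. With DESeq2, 1 passed in Nutlin-3 against vehicle (*Kcnk9*), beside 79 of 22592 genes. The cause was not tested. The filterByExpr function of edgeR would keep 80 of the 83 members, and no test was run on that set. Over all genes the calls in KO-Nut3 against KO-Veh were 45, with 245 in DESeq2, 544 with at least 1 count, 0 with all 12 libraries and 20 with the number block. In the other comparisons, in the order KO-Veh, WT-Nut3, KO-Nut3 against WT-Nut3, interaction, KO against WT and Nutlin-3 against vehicle, they were 4, 0, 1, 0, 1 and 0, with DESeq2 22, 0, 7, 1, 43 and 79, with at least 1 count 272, 249, 38, 291, 239 and 539, and with the number block 21, 11, 1, 0, 10 and 3. With all 12 libraries the count in KO-Veh against WT-Veh was 1. Without 1 library, calls over all genes reached 266 in KO-Nut3 against KO-Veh (without KO-Nut3 RH8), 11 in KO-Veh against WT-Veh (without WT-Veh RH15), 7 in KO-Nut3 against WT-Nut3 (without WT-Nut3 RH9), 10 in KO against WT (without KO-Nut3 RH6) and 19 in Nutlin-3 against vehicle (without WT-Nut3 RH14). Without 1 library, the median log2 fold change of the members ran from -0.1023 to 0.0028 in KO-Nut3 against WT-Nut3, the highest without WT-Nut3 RH1, and from -0.0631 to -0.0274 in KO against WT. For KO against WT, *Kcnt1* ran from -0.0539, without KO-Nut3 RH6, to 0.1795, and *Kcnmb4* from -0.1655 to 0.0547, with positive values of 0.0241, 0.0547, 0.0089 and 0.0071 without KO-Nut3 RH6, KO-Nut3 RH13, WT-Nut3 RH9 or WT-Nut3 RH14. Of 508 alternative values of 38 named results, 497 kept their direction and their side of the threshold. Per kb of the longest transcript, *Kcnab2* was at 197 CPM. No paired analysis was possible because the animal numbers are not shared between groups. With 3 mice per group, intervals of low-count members such as *Kcnj5* and *Kcnn4* spanned more than 2-fold.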

Other observations

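Genes with *Kcn* symbols that code for no protein were counted beside the family. *Kcnq1ot1*, an imprinted transcript antisense to *Kcnq1*, had 8058 counts over all libraries on 93092 bp of exon, and *Kcnq1* had 217 on 4093 bp. The counts in this paragraph are not scaled by exon length. *Kcnmb4os2* had 533 counts and *Kcnmb4* 323, *Kcnd3os* had 501 and *Kcnd3* 25587, and *Kcnab3os* had 3 and *Kcnab3* 4199. Because the counts join both strands, reads where these genes overlap cannot be assigned to either.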
